A study of Mus musculus with 4 samples.

Results

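Basement membranes are thin sheets of extracellular matrix that underlie epithelia and surround blood vessels, muscle and fat. A network of type IV collagen and a network of laminin are the framework, nidogens and the heparan sulfate proteoglycan perlecan link the networks, and collagens XV and XVIII sit at the border with the surrounding tissue. A carcinoma cell both makes these proteins and has to cross such sheets when it invades. The genes described are 10 of the 35905 genes in the tables and were taken by name: Col4a1 and Col4a2 (type IV collagen), Lama5, Lamb1 and Lamc1 (laminin), Nid1 and Nid2 (nidogens), Hspg2 (perlecan), Col15a1 and Col18a1.

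RNA was sequenced from cells of LLC, the Lewis lung carcinoma, which is an established line from a C57BL/6 mouse, taken from tumours that had grown under the skin of the flank of C57BL/6 mice for 4 weeks. The cells were sorted as positive for TdTomato and negative for CD45, the antigen of leukocytes. PAD4-DN hosts were Mrp8Cre+, Padi4fl/fl, and WT hosts were Mrp8Cre-, Padi4fl/fl, so both groups carried the floxed Padi4 alleles and differed in the Cre transgene. Mrp8Cre is a myeloid driver that is strongest in neutrophils, so the deletion of Padi4, which encodes an enzyme of neutrophil extracellular trap formation, was made in the host and not in the sorted cells. Each group had 2 libraries, with 20036322 to 25327974 estimated counts each. The sources used here do not say whether replicates came from separate animals or from pools, so the tests cover the spread among these libraries, which may be technical. Because the deletion was not in the sorted cells, their RNA cannot check it.

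The sorted cells expressed the keratins Krt8 and Krt18, at 131 to 178 and 184 to 227 TPM (a share of all transcripts in a library, scaled for transcript length), and the mesenchymal filament gene Vim at 3155 to 3598 TPM. The epithelial gene Epcam had at most 4 counts in a library, and the lung lineage genes Nkx2-1 and Sftpc had at most 3 and 0 counts. Libraries of the same group stood apart in Col1a1, a fibroblast collagen gene. It was at 652 and 16.9 CPM (counts relative to library size, not scaled for length) in PAD4-DN replicates 1 and 2, and at 15.96 and 531 CPM in WT replicates 1 and 2. PAD4-DN replicate 1 and WT replicate 2 were thus high for Col1a1, across the genotypes, and fits without each library are given beside the results that turn on it. Col3a1, another such gene, spread far less, at 11640 and 6564 CPM in PAD4-DN and 7405 and 8248 CPM in WT. In bulk RNA a smaller number of cells of a type and less RNA per cell cannot be told apart.

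The type IV collagen genes Col4a1 and Col4a2 encode the chains of the network found in nearly every basement membrane, and they lie head to head on chromosome 8. Their promoter windows are shown for this arrangement. The pair also moved together from library to library, and any part of the promoter in that was not tested. In the RefSeq annotation on GRCm38.p6 their start sites were 21 bases apart on opposite strands, with the transcripts overlapping by 22 bases. Each window holds 250 bases before and 50 bases after the start, and the last 78 bases of each window, in capitals, are the reverse complement of those of the other.
Col4a1, chr8:11312777-11313076, minus strand: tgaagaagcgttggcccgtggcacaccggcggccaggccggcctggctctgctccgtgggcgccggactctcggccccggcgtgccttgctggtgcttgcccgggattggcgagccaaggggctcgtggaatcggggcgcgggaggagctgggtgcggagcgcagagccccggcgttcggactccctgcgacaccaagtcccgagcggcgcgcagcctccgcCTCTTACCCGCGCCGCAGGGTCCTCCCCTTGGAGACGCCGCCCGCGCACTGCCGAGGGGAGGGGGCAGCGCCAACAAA
Col4a2, chr8:11312555-11312854, plus strand: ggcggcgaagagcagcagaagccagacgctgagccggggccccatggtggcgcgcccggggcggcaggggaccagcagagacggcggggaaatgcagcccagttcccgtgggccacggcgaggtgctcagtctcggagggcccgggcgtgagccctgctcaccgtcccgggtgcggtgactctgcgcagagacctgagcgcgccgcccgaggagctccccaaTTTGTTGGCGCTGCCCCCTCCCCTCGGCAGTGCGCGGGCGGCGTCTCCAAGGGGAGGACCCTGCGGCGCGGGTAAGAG
The shared stretch spans chr8:11312777-11312854. The GC box, GGGCGG on either strand, had 1 match in the Col4a1 window and 3 in the Col4a2 window, and CCAAT on either strand had 1 in each. Of the 32851 windows in the table, 35.7% held the first motif and 37.4% the second. No window of either gene held TATAAA, which 13.6% of windows did.

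Col18a1, whose C-terminal fragment is endostatin, has more than 1 promoter, and its windows are shown because nearly all its reads went to transcripts of the upstream one. The window on GRCm38.p6 at the start of transcript Col18a1-202 and the downstream window at the start of Col18a1-203 are given in this order, with GC boxes in capitals.
Col18a1 upstream, chr10:77166481-77166780, minus strand: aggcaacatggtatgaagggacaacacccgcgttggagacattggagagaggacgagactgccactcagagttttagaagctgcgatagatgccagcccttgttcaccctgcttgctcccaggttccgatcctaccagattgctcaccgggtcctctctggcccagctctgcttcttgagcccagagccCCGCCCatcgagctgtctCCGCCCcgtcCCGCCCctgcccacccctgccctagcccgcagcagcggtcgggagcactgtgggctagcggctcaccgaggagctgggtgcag
Col18a1 downstream, chr10:77113656-77113955, minus strand: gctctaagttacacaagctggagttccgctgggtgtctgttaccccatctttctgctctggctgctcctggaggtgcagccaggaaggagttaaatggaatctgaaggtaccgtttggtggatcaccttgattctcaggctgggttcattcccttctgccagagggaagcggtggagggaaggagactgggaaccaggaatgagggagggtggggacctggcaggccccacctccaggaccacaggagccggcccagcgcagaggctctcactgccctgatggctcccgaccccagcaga
The upstream window held 3 GC boxes and 1 CCAAT match, and the downstream window held 0 of each. Transcript Col18a1-202 took 99.6% and 99.0% of Col18a1 estimated counts in PAD4-DN replicates 1 and 2, and 99.5% and 99.6% in WT replicates 1 and 2. Col18a1-203 took at most 0.118% in any library. These shares are estimates where transcripts overlap in sequence.

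In RNA of the sorted cells from both groups of hosts, 8 of the 10 genes were at high levels, and Col15a1 and Nid2 were nearly absent. How much of this RNA came from other cell types in the sort was not tested. Nid1, which bridges laminin and type IV collagen, was the highest, at 539 and 480 TPM in PAD4-DN and 499 and 388 TPM in WT, rank 217 by mean TPM of 21850 protein-coding genes. Col18a1 came next by mean, at 323 and 198 TPM in PAD4-DN and 254 and 262 TPM in WT, below Nid1 in each library. Lamb1, Hspg2 and Lamc1 followed with overlapping levels, between 149 and 227 TPM in all 4 libraries. Below them lay Col4a1, Lama5 and Col4a2, whose ranges of 67.0 to 157, 59.2 to 67.8 and 36.5 to 93.9 TPM also overlapped. Col15a1 was at 1.99 and 0.125 TPM in PAD4-DN and 0.380 and 2.73 TPM in WT, and Nid2 at 0.766 and 0.139 TPM in PAD4-DN and 0.164 and 0.559 TPM in WT. Summed over the 10 genes the level was 1805 and 1383 TPM in PAD4-DN and 1490 and 1333 TPM in WT. That is 0.134% to 0.181% of all TPM, and Nid1 was 29.1% to 34.7% of the sum.

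**Figure D1:**
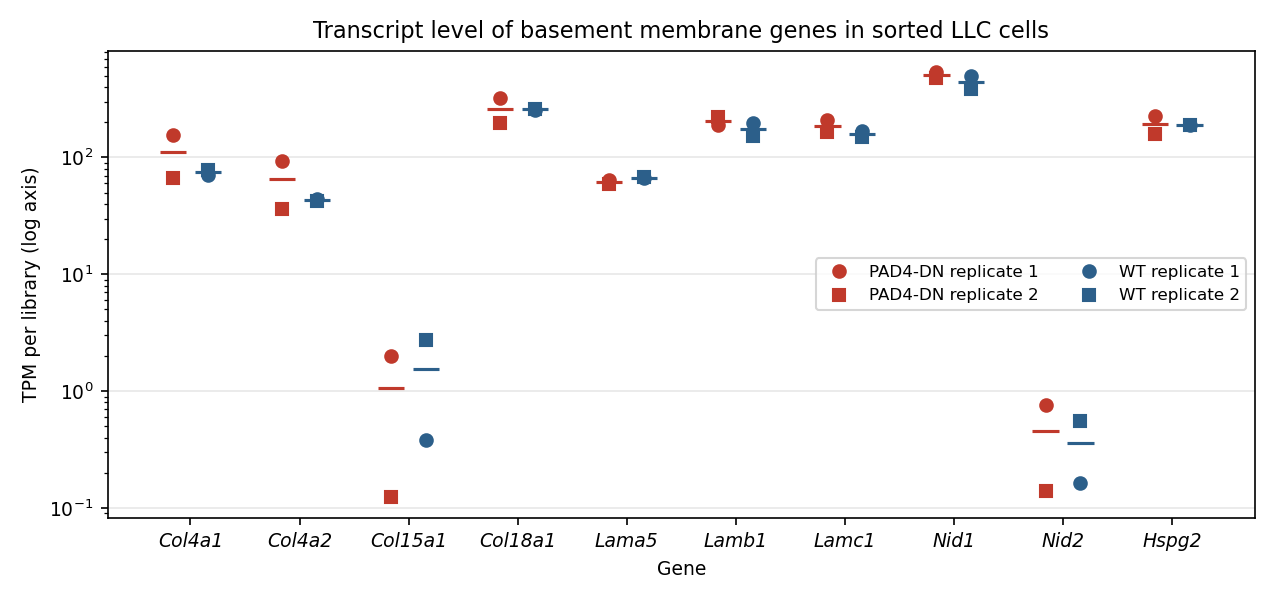
TPM of the 10 basement membrane genes (log axis), with PAD4-DN libraries in red on the left of each pair and WT libraries in blue on the right; circles are replicate 1, squares replicate 2 and lines group means of 2 libraries. The other 8 genes lie between 36.5 and 539 TPM, and Col15a1 and Nid2 at 2.73 TPM or lower.

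The comparison asked whether these genes differ in tumour cells from hosts whose neutrophils lack Padi4. With edgeR's quasi-likelihood test and Benjamini-Hochberg adjustment over 13718 genes, 0 of the 10 passed a false discovery rate of 0.05, against a background of 0 of all genes (0%). None of the 10 had an unadjusted p under 0.05 by edgeR, which 2.65% of all genes tested had (1.23% higher and 1.42% lower in PAD4-DN). The smallest adjusted p of the 10 was 0.988, also the smallest of all genes. DESeq2 called 10 genes of all, and 0 of these 10. Of the 10, 1 gene had libraries that did not overlap between the genotypes, Lama5, against 32.8% of all genes tested. The median log2 fold change, PAD4-DN minus WT, was 0.09 over the 10 genes, with 6 positive and 4 negative, and 0.01 over all genes tested. Without PAD4-DN replicate 1 the median of the 10 was −0.39. With 2 libraries per group an exact permutation test of a single value cannot give a two-sided p below 0.333.

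**Figure D2:**
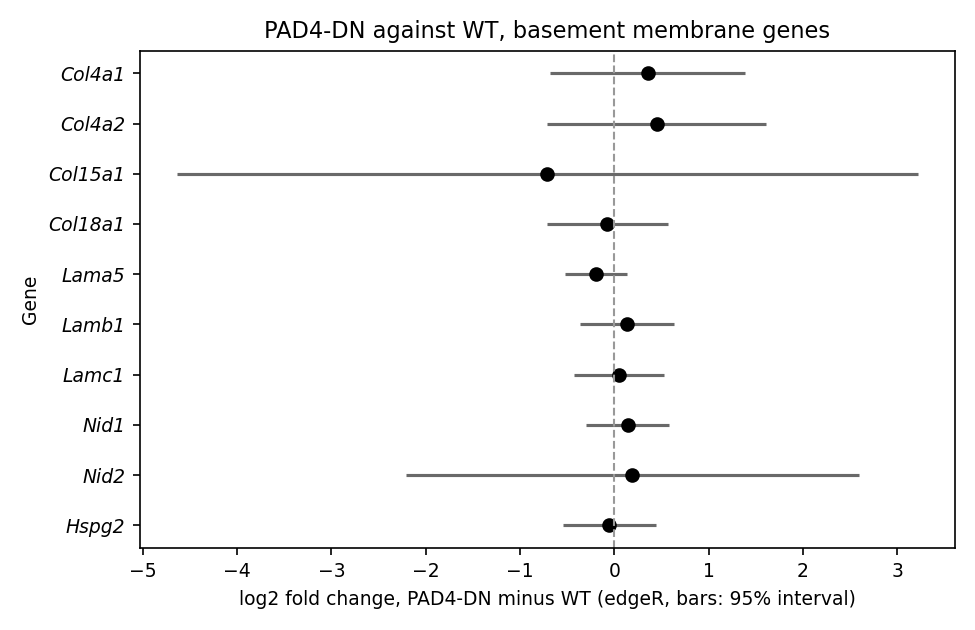
Log2 fold change of each gene, PAD4-DN minus WT, from edgeR, with 95% intervals. Each interval includes 0, and those of Col15a1 and Nid2, the genes with few counts, are the widest.

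The type IV collagen pair was higher in PAD4-DN replicate 1 than in each other library and lowest in PAD4-DN replicate 2. Col4a1 was at 547 and 220 CPM in PAD4-DN and 283 and 318 CPM in WT, a mean of 384 ± 231 CPM in PAD4-DN and 300.2 ± 24.9 CPM in WT (SD, n = 2 each). Col4a2 was at 347 and 121 CPM in PAD4-DN and 172 and 171 CPM in WT. For both genes the WT libraries lay between those of PAD4-DN, so the groups overlapped. The log2 fold change by edgeR was 0.35 for Col4a1 (SE 0.41, 95% interval −0.68 to 1.39, adjusted p = 0.988). For Col4a2 it was 0.45 (SE 0.46, 95% interval −0.71 to 1.61). Leaving out PAD4-DN replicate 1 gave −0.46 for Col4a1 and −0.51 for Col4a2, and leaving out PAD4-DN replicate 2 gave 0.86 for Col4a1 and 1.01 for Col4a2.

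Between its highest and lowest library Col4a1 differed by 1.31 on the log2 scale and Col4a2 by 1.52. The median of this range was 0.32 over the 2098 genes tested that had at least 100 mean CPM, of which 1.81% and 1.33% had a range as large as those of Col4a1 and Col4a2. The pair kept its proportion through this spread. The ratio of Col4a1 to Col4a2 TPM was 1.67 and 1.84 in PAD4-DN and 1.61 and 1.86 in WT. This is a ratio of RNA, and the protein chains were not measured. Their log2 CPM profiles, each centred on its mean, were 0.099 apart as a root mean square over the 4 libraries. Coding transcript Col4a1-201 took 98.0% and 79.3% of Col4a1 estimated counts in PAD4-DN and 91.6% and 98.8% in WT. Col4a1-208, a transcript annotated as a target of nonsense-mediated decay, had 11.6 and 980 counts in PAD4-DN and 452 and 9.4 in WT, and was most of the rest in PAD4-DN replicate 2 and WT replicate 1. In PAD4-DN replicate 1 and WT replicate 2 most of the rest was on Col4a1-207, another such transcript, which had 196 and 39.6 counts in PAD4-DN and 57.1 and 62.5 in WT. Col4a1-201 and Col4a1-208 are 6615 and 6487 bases long, and how reads were divided between them is an estimate that leaves the gene sum as it is.

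**Figure D3:**
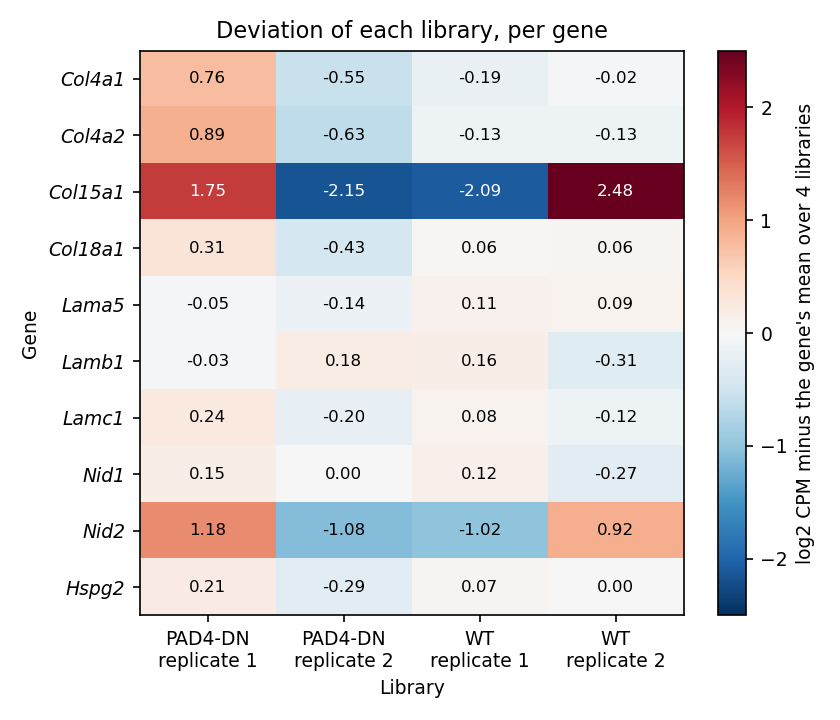
Log2 CPM of each gene in each library minus the gene's mean over the 4 libraries, PAD4-DN libraries on the left and WT libraries on the right. Col4a1 and Col4a2 are highest in PAD4-DN replicate 1, and Col15a1 and Nid2 are high in PAD4-DN replicate 1 and WT replicate 2.

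Laminins are trimers of an α, a β and a γ chain, and Lama5, Lamb1 and Lamc1 encode the chains of laminin-511, a widespread adult form. Lama5 had the smallest spread of the 10 genes, at 505 and 473 CPM in PAD4-DN and 563 and 555 CPM in WT. Neither PAD4-DN library reached either WT library, as for 17.4% of all genes tested, and the log2 fold change by edgeR was −0.19 (SE 0.13, 95% interval −0.52 to 0.14, adjusted p = 0.988). With each library left out the value lay between −0.25 and −0.15. Since the libraries did not overlap, that order set the negative sign of these fits, which is no separate check. Lamb1 was at 715 and 830 CPM in PAD4-DN and 817 and 591 CPM in WT, with WT replicate 2 the lowest library. Lamc1 was at 975 and 721 CPM in PAD4-DN and 874 and 762 CPM in WT. For both genes the groups overlapped, and the log2 fold changes by edgeR were 0.13 for Lamb1 (SE 0.20) and 0.05 for Lamc1 (SE 0.19). Without WT replicate 2 they were −0.08 and −0.05, and Lamc1 was at −0.19 without PAD4-DN replicate 1.

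The chains were not at equal levels per length. Lamb1 was 2.95 and 3.72 times Lama5 in PAD4-DN and 2.92 and 2.25 times in WT, in TPM. Lamc1 was 3.30 and 2.76 times Lama5 in PAD4-DN and 2.54 and 2.19 times in WT. A difference between the groups in these ratios was not tested, and in CPM the groups overlapped for Lamb1 and for Lamc1. Gene TPM also includes short transcripts such as Lamc1-205, of 762 bases, annotated as a target of nonsense-mediated decay. Lamc1-205 had 196 and 244 counts in PAD4-DN and 137 and 74.1 in WT. Lama5 was the highest of the α chain genes: it was 8.75 and 21.6 times Lama4, the next, in PAD4-DN and 10.7 and 9.92 times in WT. The other β chain gene of wide use, Lamb2, was at 16.2 and 13.6 TPM in PAD4-DN and 8.06 and 11.9 TPM in WT. In CPM its groups overlapped, at 35.2 and 21.1 in PAD4-DN and 24.5 and 26.2 in WT. Its log2 fold change by edgeR was 0.15 (SE 0.26). Of the 8 laminin genes outside the 10, 5 were tested and 0 passed by edgeR. Lama1, Lamb3 and Lamc3 were too low to test, with at most 21 counts in a library. Lama4 was at 29.9 and 11.4 CPM in PAD4-DN and 27.6 and 27.5 CPM in WT, and Lama2, a chain typical of muscle, at 10.8 and 2.14 CPM in PAD4-DN and 2.42 and 5.75 CPM in WT. PAD4-DN replicate 2 was the lowest library for both.

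Nidogens and perlecan join the networks. Nid1 was at 2238 and 2010 CPM in PAD4-DN and 2185 and 1666 CPM in WT, and the groups overlapped, with WT replicate 2 the lowest library. Its log2 fold change by edgeR was 0.14 (SE 0.18, 95% interval −0.30 to 0.58), and −0.04 without WT replicate 2. Hspg2 was at 2228 and 1575 CPM in PAD4-DN and 2019 and 1920 CPM in WT, again with both WT libraries between those of PAD4-DN. Its log2 fold change by edgeR was −0.05 (SE 0.20, 95% interval −0.54 to 0.44), and 0.17 without PAD4-DN replicate 2. Reads of Hspg2 were divided almost evenly between transcripts Hspg2-201 and Hspg2-203, 14187 and 14176 bases long, with 50.1% to 52.6% on the first. Col18a1 had the same highest and lowest library as Hspg2, at 1071 and 638 CPM in PAD4-DN and 897 and 901 CPM in WT. Its log2 fold change by edgeR was −0.07 (SE 0.26, 95% interval −0.72 to 0.57), and 0.25 without PAD4-DN replicate 2. For Col4a1, Col4a2, Col18a1, Lamc1, Hspg2 and the low Nid2, PAD4-DN replicate 1 was the highest library in CPM and PAD4-DN replicate 2 the lowest. For Nid2, at 47 and 11 counts in PAD4-DN and 11 and 48 in WT, scaling by library size set this order. The share of all genes with this order was not counted.

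Nid2 and Col15a1, relatives of Nid1 and Col18a1, were at the edge of detection in a pair of libraries and followed Col1a1 rather than genotype. Col15a1 was at 5.95 and 0.377 CPM in PAD4-DN, from 122 and 9 counts, and at 0.396 and 9.88 CPM in WT, from 9 and 249 counts. Nid2 was at 2.29 and 0.461 CPM in PAD4-DN, from 47 and 11 counts, and at 0.484 and 1.90 CPM in WT, from 11 and 48 counts. PAD4-DN replicate 1 and WT replicate 2 were the high libraries for both genes, so the groups overlapped. The highest library was 26.2 times the lowest for Col15a1 and 4.97 times for Nid2, in CPM. Log2 fold changes by edgeR were −0.71 for Col15a1 (SE 1.57, 95% interval −4.64 to 3.22) and 0.19 for Nid2 (SE 0.96, 95% interval −2.21 to 2.59). Leaving out WT replicate 2 gave 2.97 for Col15a1 and 1.49 for Nid2, and leaving out PAD4-DN replicate 1 gave −3.76 for Col15a1 and −1.37 for Nid2. For Col15a1 the value was 0.21 without PAD4-DN replicate 2, and for Nid2 it was −0.47 without WT replicate 1.

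Markers of other cell types are given beside these values. Endothelium and pericytes are major makers of Col4a1, Col4a2 and Col15a1 in tissue, and fibroblasts express Nid2 and Col15a1. All 12 fibroblast markers were tested and 0 passed by edgeR. Their summed level was 7078 and 4582 TPM in PAD4-DN and 4527 and 4987 TPM in WT. Most of that was Col3a1, at 5100 and 2754 TPM in PAD4-DN and 3060 and 3398 TPM in WT. Of their log2 fold changes 10 were positive and 2 negative. For 7 of the 12, PAD4-DN replicate 1 and WT replicate 2 were the higher libraries, and Dcn, Lum, Fap, Dpt and Fbn1 had another order. Dpt and Fap were higher in both PAD4-DN libraries, an order that 15.4% of all genes tested had. Dpt was at 255 and 180 CPM in PAD4-DN and 135 and 154 CPM in WT. It alone of the 12 had an unadjusted p under 0.05 by edgeR (0.0277, adjusted p = 0.988). Fap was at 29.2 and 29.1 CPM in PAD4-DN and 26.5 and 12.1 CPM in WT. Lum was lowest in PAD4-DN replicate 1, at 343 and 681 CPM in PAD4-DN and 425 and 442 CPM in WT. Dcn was lowest in WT replicate 2, at 981 and 1045 CPM in PAD4-DN and 981 and 770.0 CPM in WT, as were Fap and Fbn1. Of the 7, Col1a2 was at 467 and 3.94 CPM in PAD4-DN and 0.879 and 404 CPM in WT. Pi16, a marker of universal fibroblasts, was at 14.4 and 1.17 CPM in PAD4-DN and 0.615 and 13.4 CPM in WT, the same high libraries as for Col15a1 and Nid2. Of 12 endothelial markers 11 were tested and 0 passed by edgeR, and their summed level was 86.2 and 63.6 TPM in PAD4-DN and 67.8 and 67.1 TPM in WT. Most of that was Eng and Pecam1, while the defining gene Cdh5 was at 4.59 and 1.26 CPM in PAD4-DN and 3.91 and 2.86 CPM in WT. Pecam1 was at 57.7 and 33.2 CPM in PAD4-DN and 33.4 and 26.8 CPM in WT. It was highest in PAD4-DN replicate 1, as Col4a1 was, but lowest in WT replicate 2. Eng was at 65.9 and 58.5 CPM in PAD4-DN and 66.6 and 71.7 CPM in WT. Eng, Tie1, Esam and Cldn5 were highest in WT replicate 2, and Egfl7 in PAD4-DN replicate 2. Of 10 pericyte and smooth muscle markers 6 were tested and 0 passed by edgeR, and they summed to 12.7 and 10.4 TPM in PAD4-DN and 9.07 and 10.7 TPM in WT, with Myh11 and Des at no more than 4 counts in any library. The 10 macrophage and leukocyte markers summed to 119 and 23.5 TPM in PAD4-DN and 57.4 and 60.0 TPM in WT, with 0 passing by edgeR, and were again highest in PAD4-DN replicate 1 and lowest in PAD4-DN replicate 2. Among them Ptprc, which encodes CD45, was at 5.42 and 0.713 CPM in PAD4-DN and 2.20 and 1.71 CPM in WT. Of 8 neutrophil markers 5 were tested and 0 passed by edgeR, at a summed 65.5 and 14.0 TPM in PAD4-DN and 47.3 and 7.33 TPM in WT. None of these lists held a gene at 0 in every library. The part of these cell types in the values of the basement membrane genes was not tested.

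**Figure D4:**
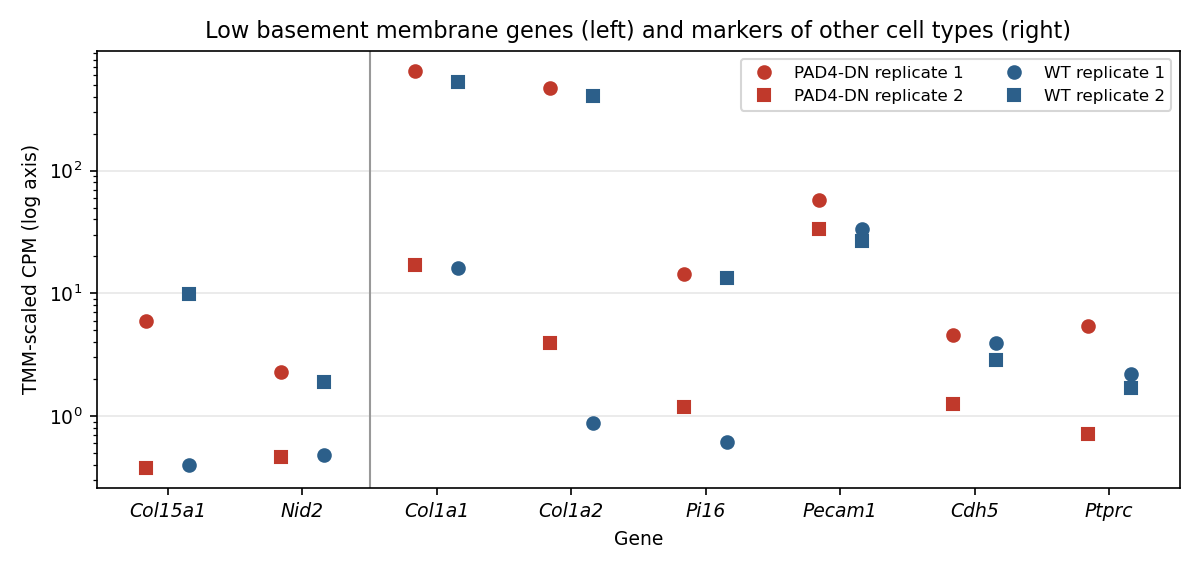
TMM-scaled CPM (log axis) of Col15a1 and Nid2, left of the line, and of markers of fibroblasts (Col1a1, Col1a2, Pi16), endothelium (Pecam1, Cdh5) and leukocytes (Ptprc), right of it; PAD4-DN libraries are in red on the left of each pair and WT libraries in blue on the right, circles replicate 1 and squares replicate 2. Col15a1, Nid2 and the 3 fibroblast genes shown are high in PAD4-DN replicate 1 and WT replicate 2; 5 of the 12 fibroblast markers, not shown, had another order.

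The remaining genes of the basement membrane were read from the same fit, by list, and 0 genes of any list passed by edgeR. Of the other type IV collagen chains, Col4a5, which pairs with Col4a6 or with Col4a3 and Col4a4, was at 1.51 and 1.13 CPM in PAD4-DN and 7.34 and 3.77 CPM in WT. Its groups did not overlap, PAD4-DN being lower, with a log2 fold change by edgeR of −2.07 (SE 0.46, unadjusted p = 0.00486, adjusted p = 0.988), at 31 and 27 counts in PAD4-DN and 167 and 95 in WT. Col4a3 and Col4a4 stayed at or below 1.12 CPM, and Col4a6 had at most 3 counts in a library and was not tested. Of 20 other basement membrane proteins 13 were tested, with a median log2 fold change of −0.14, 2 positive and 11 negative. In this list Ntn4, a netrin that binds laminin γ chains, was at 6.98 and 8.93 CPM in PAD4-DN and 15.1 and 18.5 CPM in WT, a log2 fold change by edgeR of −1.08 (SE 0.22, unadjusted p = 0.00346, adjusted p = 0.988). The integrin ligand Npnt was at 0.293 and 0.671 CPM in PAD4-DN and 1.14 and 1.19 CPM in WT. Agrin (Agrn), a heparan sulfate proteoglycan, was at 86.0 and 68.8 CPM in PAD4-DN and 76.6 and 138 CPM in WT, so WT replicate 2 alone was high.

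Among 13 receptors 12 were tested, with 7 log2 fold changes positive and 5 negative and a median of 0.02. The laminin receptor subunits Itga3 and Itgb4 were the members of this list with an unadjusted p under 0.05. Itga3 was at 64.7 and 77.7 CPM in PAD4-DN and 96.2 and 108 CPM in WT, a log2 fold change by edgeR of −0.52 (SE 0.14, unadjusted p = 0.0124, adjusted p = 0.988). Itgb4, which forms hemidesmosomes with Itga6, was at 8.73 and 8.80 CPM in PAD4-DN and 15.4 and 12.9 CPM in WT, a log2 fold change by edgeR of −0.69 (SE 0.19, unadjusted p = 0.0131). With each library left out the values lay between −0.66 and −0.40 for Itga3 and between −0.81 and −0.56 for Itgb4. For both genes the libraries did not overlap between the groups, so that order set the negative sign of these fits, which is no separate check. Of their partner subunits, Itgb1 was at 1423 and 1636 CPM in PAD4-DN and 1436 and 1370 CPM in WT, and Itga6 at 447 and 593 CPM in PAD4-DN and 611 and 454 CPM in WT. Itga7, a laminin receptor subunit of muscle, was at 3.81 and 5.37 CPM in PAD4-DN and 6.46 and 5.20 CPM in WT. The laminin and perlecan receptor Dag1 was at 275 and 269 CPM in PAD4-DN and 285 and 250.5 CPM in WT.

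All 14 genes of type IV collagen assembly and crosslinking were tested, with a median log2 fold change of −0.05, 5 positive and 9 negative. The lysyl hydroxylase and glucosyltransferase Plod3 was at 83.8 and 81.3 CPM in PAD4-DN and 102 and 99.7 CPM in WT, a log2 fold change by edgeR of −0.29 (SE 0.11, unadjusted p = 0.0383). P3h2, a prolyl 3-hydroxylase of type IV collagen, was at 14.1 and 18.6 CPM in PAD4-DN and 20.5 and 22.1 CPM in WT. Mia3, which helps load collagen for secretion, was at 231 and 224 CPM in PAD4-DN and 199 and 215 CPM in WT. The crosslinking peroxidase Pxdn was nearly even, at 572 and 562 CPM in PAD4-DN and 563 and 586 CPM in WT. Loxl2, a lysyl oxidase that crosslinks the type IV network, was highest in the same library as the collagen, at 138 and 60.8 CPM in PAD4-DN and 57.5 and 98.1 CPM in WT. All 12 degradation genes were tested, with a median log2 fold change of 0.12, 9 positive and 3 negative. Adamts1, a secreted metalloproteinase, had the smallest p of them, at 466 and 173 CPM in PAD4-DN and 120 and 179 CPM in WT, a log2 fold change by edgeR of 1.10 (SE 0.48, unadjusted p = 0.0661), and 0.20 without PAD4-DN replicate 1. Mmp9, a gelatinase that cleaves type IV collagen, was at 1.90 and 2.98 CPM in PAD4-DN and 3.91 and 3.69 CPM in WT. The inhibitor gene Timp3 was at 4.15 and 0.461 CPM in PAD4-DN and 1.05 and 10.03 CPM in WT. The other gelatinase gene, Mmp2, was at 45.0 and 1.01 CPM in PAD4-DN and 0 and 39.2 CPM in WT, with the same high libraries as Col1a1. Of the 59 genes tested in these 6 lists, Col4a5, Ntn4, Itga3, Itgb4 and Plod3 had an unadjusted p under 0.05 by edgeR with a lower level in PAD4-DN, which is 8.47%, against 1.42% of all genes tested. With a higher level there were 0 of the 59, against 1.23% of all genes tested. None of the 5 passed after adjustment, and the lists were not compared with other genes by a test. The lists were also chosen with earlier results of these data known, so these shares do not measure an enrichment.

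**Figure D5:**
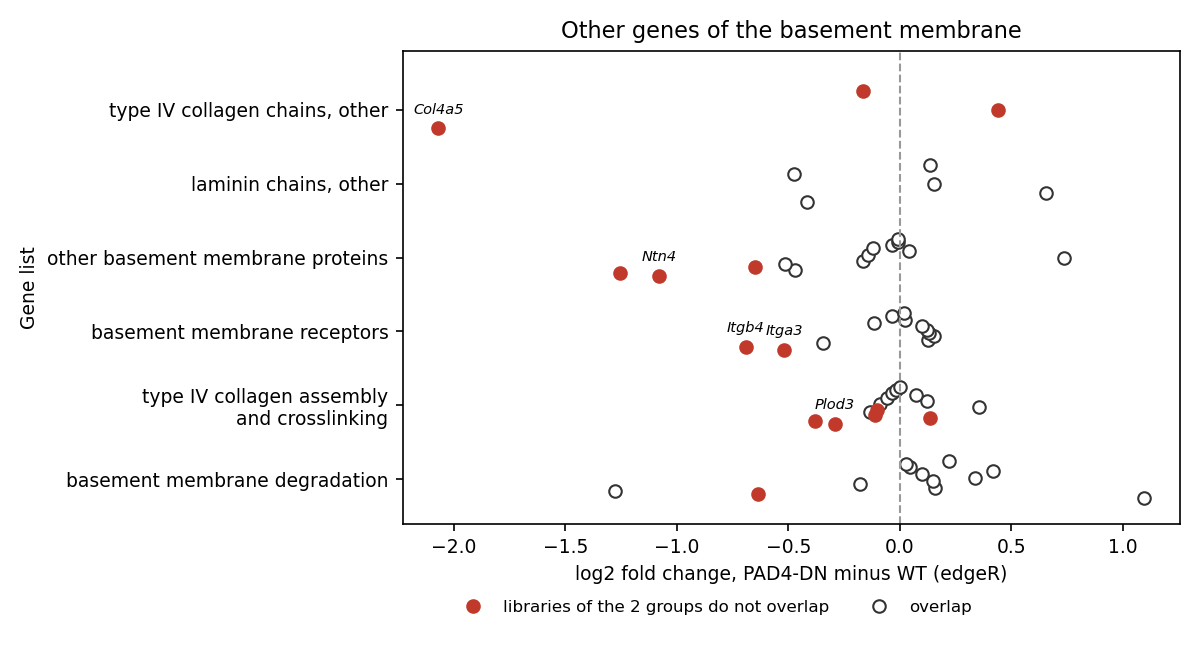
Log2 fold change, PAD4-DN minus WT, of the tested genes of 6 lists of other basement membrane genes; filled points are genes whose libraries do not overlap between the genotypes and names mark genes with an unadjusted p under 0.05. The named points lie on the negative side, from −2.07 for Col4a5 to −0.29 for Plod3.

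The median profile of the 10 genes, on log2 CPM centred per gene, was 0.28 and −0.36 in PAD4-DN and 0.06 and −0.01 in WT. Of 6746 protein-coding genes with at least 20 mean CPM outside the 10, those nearest to it by root mean square distance over the 4 libraries included Hdac7, Bckdk, Baiap2, Ecm1 and Cyb561a3, at distances of 0.011 to 0.046. Hdac7, a class IIa histone deacetylase, was at 50.6 and 32.6 CPM in PAD4-DN and 44.0 and 41.1 CPM in WT. Ecm1, which encodes extracellular matrix protein 1, was at 45.0 and 27.5 CPM in PAD4-DN and 36.2 and 34.7 CPM in WT. With 4 libraries so near a match is a description of these values.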

How the data were processed

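Per the submitters' processing notes, kallisto and the build GRCm39 were used; the kallisto version, the annotation release and its settings are not stated there. By the labels' protocols, 100 ng of total RNA gave strand-specific poly-A libraries with 13 PCR cycles, read for 75 cycles, single-end. Estimated counts, as deposited by the authors, carry no normalization, and the TPM deposited by the authors sum to 1000000 per library.

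Of 117486 transcripts, 116408 matched a GENCODE M21 gene by identifier without version; the other 1078 held 0.483% to 0.493% of counts and stay outside all values. Counts were then added up by gene and rounded. PAD4-DN was compared with WT by edgeR 4.0.16 (R 4.3.3): TMM, filterByExpr (13718 genes kept, with all 10 genes), quasi-likelihood test, Benjamini-Hochberg at 0.05, no block. CPM use TMM-scaled library sizes. SE is the log2 fold change divided by the root of F. Alternatives included DESeq2 1.42.0 and limma 3.58.1, with pseudocounts of 1 and 0.1 on TPM of at least 1 on average. Promoter windows, from RefSeq on GRCm38.p6, were found for 8 of 10 genes by symbol, without Lamc1 and Nid2. Genes named from other lists are the 3 with the smallest p per list, plus a few chosen after their values were seen: Itgb1, Itga6, Dag1, Pxdn, Loxl2, Mmp2 and the markers. One gene that the rule for likeness names is not reported here. The members and lists were chosen with earlier results of these data known. Intervals cover neither PCR duplication nor differences between tumours beyond these libraries.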

Additional observations from a re-analysis of the deposited data

How the results depend on the processing

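Each of the 10 genes stayed above the threshold of adjusted p in every alternative that gave it a value; Nid2 had too low a TPM for the fits on log2(TPM + 1) and log2(TPM + 0.1). Over all genes the count called was 10 with DESeq2 and 10 by edgeR without the low-count filter, against 0, and 0 to 2 with each library left out; none was a basement membrane gene of any list. With the replicate number as a block, edgeR called 0 genes and the median of the 10 genes was 0.07. Same-numbered libraries deviated in opposite directions (correlation −0.34 across 13718 genes, which are not independent replicates). With 2 libraries per group replicates 1 and 2 give the same value, which cannot decide whether the numbers pair the samples. With the numbers crossed, an alternative chosen after seeing the data, 0 genes and 0 of the 10 were called. Other settings kept the sign of each of the 10 genes, and of the 18 other named genes. The sum over the genes in PAD4-DN was 1.13 times that in WT by TPM, 1.12 without Nid1, 1.10 on protein-coding transcripts and 1.03 by CPM.

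With each library left out, fitted with 1 library in a group assumed to vary like the others, the median of the 10 genes ran from −0.39 to 0.23. Log2 fold changes ran from −0.46 to 0.86 for Col4a1, −0.51 to 1.01 for Col4a2, −3.76 to 2.97 for Col15a1, −0.50 to 0.25 for Col18a1, −0.083 to 0.39 for Lamb1, −0.19 to 0.25 for Lamc1, −0.044 to 0.35 for Nid1, −1.37 to 1.49 for Nid2 and −0.33 to 0.17 for Hspg2. They also changed sign for Lama4 (−1.28 to 0.11), Lama2 (−0.94 to 1.41), Lamb2 (−0.27 to 0.47), Agrn (−0.83 to 0.012) and Timp3 (−3.58 to 1.11); the cause was not tested. Low counts limit Col15a1, Nid2 and Col4a5.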
